A study of Mus musculus with 12 samples.

Results

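The Notch pathway genes measured here are the receptors Notch1, Notch2, Notch3 and Notch4, the ligands Dll1, Jag1 and Jag2, and the target genes Hes1, Hey1 and Heyl. They were taken as listed names, with every probe set that the platform annotation links to one of these symbols alone, and all 10 genes were found, on 20 of 45101 probe sets. Where a gene had several probe sets, the brightest on average over the arrays stood for it, and 18193 genes were measured in all. Total RNA of mammary glands from 12 virgin C57BL/6 mice, all ovariectomized, was hybridised to 12 single-colour Affymetrix arrays, 3 per group. The groups were Ccnd1-/- (knockout, KO) mice on estradiol-releasing pellets (0.72 mg, 60-day release), Ccnd1-/- mice on placebo, Ccnd1+/+ (wildtype, WT) mice on the same pellets, and Ccnd1+/+ mice on placebo, each treated for 7 days. Ccnd1 encodes cyclin D1, and the comparisons ask whether the response of the gland to estrogen depends on it. The design text describes separate mice, and the labels give neither their age nor the gland taken.

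Notch receptors are single-pass proteins that are cut after binding a Delta or Jagged ligand on a neighbouring cell. The freed intracellular part enters the nucleus, joins the DNA-binding protein Rbpj and turns on genes such as those of the Hes and Hey families, which encode transcriptional repressors. In the mammary gland the pathway is known for its part in the choice between luminal and basal cell fates, and in blood vessels for its part in endothelial and mural cells.

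Motifs of the pathway's transcription factors were looked for in the promoter windows of the members. The windows, from RefSeq on GRCm38.p6, hold 250 bases before and 50 after a gene's start, and 7 of the 10 genes matched with 8 windows. Hes1, Hey1 and Heyl were not among them. The N-box, a motif of Hes proteins, CACNAG on either strand, was in 4 of the 8 windows, 1 each of Notch1, Notch2, Notch3 and Dll1, and in 42.5% of all 32851 promoter windows of that length. The Rbpj core TGGGAA on either strand was in 0 of the 8 and in 25.6% of all windows, and the E-box CACGTG was in 0 of the 8 and in 7.2%. A match is a description of the letters and not a bound site. The N-box count of 4 in 8 is near the share of all windows, so it is no result about these genes. The other window of Dll1 held no N-box. The 4 windows with an N-box are shown, with the N-box letters in capitals. Where an N-box on each strand overlapped, as in the Notch1 window, the capitals run together.
Notch1, chr2:26503773-26504072, minus strand: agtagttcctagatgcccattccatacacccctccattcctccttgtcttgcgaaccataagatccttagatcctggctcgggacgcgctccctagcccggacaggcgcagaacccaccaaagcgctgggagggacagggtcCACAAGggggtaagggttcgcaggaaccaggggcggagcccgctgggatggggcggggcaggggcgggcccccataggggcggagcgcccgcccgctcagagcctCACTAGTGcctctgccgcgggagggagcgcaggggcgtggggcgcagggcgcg
Notch2, chr3:98013288-98013587, plus strand: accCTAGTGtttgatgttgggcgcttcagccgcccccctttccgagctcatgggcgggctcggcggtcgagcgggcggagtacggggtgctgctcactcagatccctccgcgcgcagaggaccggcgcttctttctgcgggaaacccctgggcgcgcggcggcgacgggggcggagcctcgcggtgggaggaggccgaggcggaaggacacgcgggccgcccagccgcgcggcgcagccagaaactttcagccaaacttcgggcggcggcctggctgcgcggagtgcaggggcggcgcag
Notch3, chr17:32166841-32167140, minus strand: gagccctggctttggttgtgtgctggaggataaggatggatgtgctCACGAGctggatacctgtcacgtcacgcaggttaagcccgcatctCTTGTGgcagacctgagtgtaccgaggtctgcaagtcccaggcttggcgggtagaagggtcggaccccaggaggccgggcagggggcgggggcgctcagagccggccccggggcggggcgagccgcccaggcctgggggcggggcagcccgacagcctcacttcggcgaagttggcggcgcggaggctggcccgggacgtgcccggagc
Dll1, chr17:15376883-15377182, minus strand: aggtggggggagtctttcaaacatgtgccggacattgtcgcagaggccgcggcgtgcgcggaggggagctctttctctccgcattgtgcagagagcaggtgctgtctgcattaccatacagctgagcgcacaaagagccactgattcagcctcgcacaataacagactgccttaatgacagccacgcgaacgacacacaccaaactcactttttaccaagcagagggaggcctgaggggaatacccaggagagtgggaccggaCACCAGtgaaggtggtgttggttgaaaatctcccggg

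Values are log2 intensities, on which a difference of 1 is a doubling. The array medians over all probe sets lay between 5.73 and 5.8. Over the 18193 genes they lay between 6.97 and 7.20, and they were highest in the 3 WT estradiol arrays, at 7.15 to 7.20. Only differences within a probe set are compared, since levels of different probe sets are not on one scale. A gene was called changed at an adjusted p under 0.05 in a limma fit of all 18193 genes. The number of arrays limits the precision, so each difference is given with its standard error or its 95% interval. Ccnd1 followed the labels, at 7.24 to 7.55 in KO estradiol, 7.48 to 7.68 in KO placebo, 9.35 to 10.82 in WT estradiol and 8.50 to 9.17 in WT placebo glands. RNA came from bulk tissue, so fewer cells of a type and less RNA per cell cannot be told apart.

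Levels of epithelial markers differed with the groups and are given before the Notch genes. The luminal score, the mean centred log2 value of 14 luminal epithelial markers, was -1.61 to -0.71 in KO estradiol, -1.66 to 0.07 in KO placebo, 1.11 to 2.84 in WT estradiol and -0.15 to 0.51 in WT placebo glands. The luminal keratin gene Krt8 measured 8.79, 5.65 and 7.48 in KO estradiol, 5.32, 5.89 and 9.20 in KO placebo, 11.10, 12.96 and 12.02 in WT estradiol and 8.89, 8.44 and 9.21 in WT placebo glands, so that KO estradiol replicate 1 and KO placebo replicate 3 lay within the WT placebo range. Not every luminal marker followed, since the epithelial adhesion gene Epcam averaged 7.55, 7.59, 7.69 and 7.50 in the same order of groups. Between 3 and 8 of the 14 luminal markers lay under the lower quartile of the array in the KO estradiol glands and 7, 6 and 0 in the KO placebo glands, against 0 in every WT gland. The basal score of 10 markers was -0.20 to 0.03 in KO estradiol, -0.54 to -0.16 in KO placebo, 0.65 to 1.31 in WT estradiol and -0.82 to 0.01 in WT placebo glands. For 10 endothelial markers the score was -0.44 to -0.08, -0.26 to 0.25, -0.08 to 0.29 and -0.36 to 0.67 in the same order, and for 8 mural markers -0.29 to -0.01, -0.18 to 0.40, -0.23 to 0.05 and -0.17 to 0.55. The fibroblast score of 8 markers was 0.49 to 0.82 in WT estradiol glands and at most 0.29 in every other gland, and the macrophage score of 8 markers was 0.52 to 1.95 there and at most 0.39 elsewhere. The T cell score ran from -1.80 to 2.22 among the WT placebo glands alone.

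**Figure D1:**
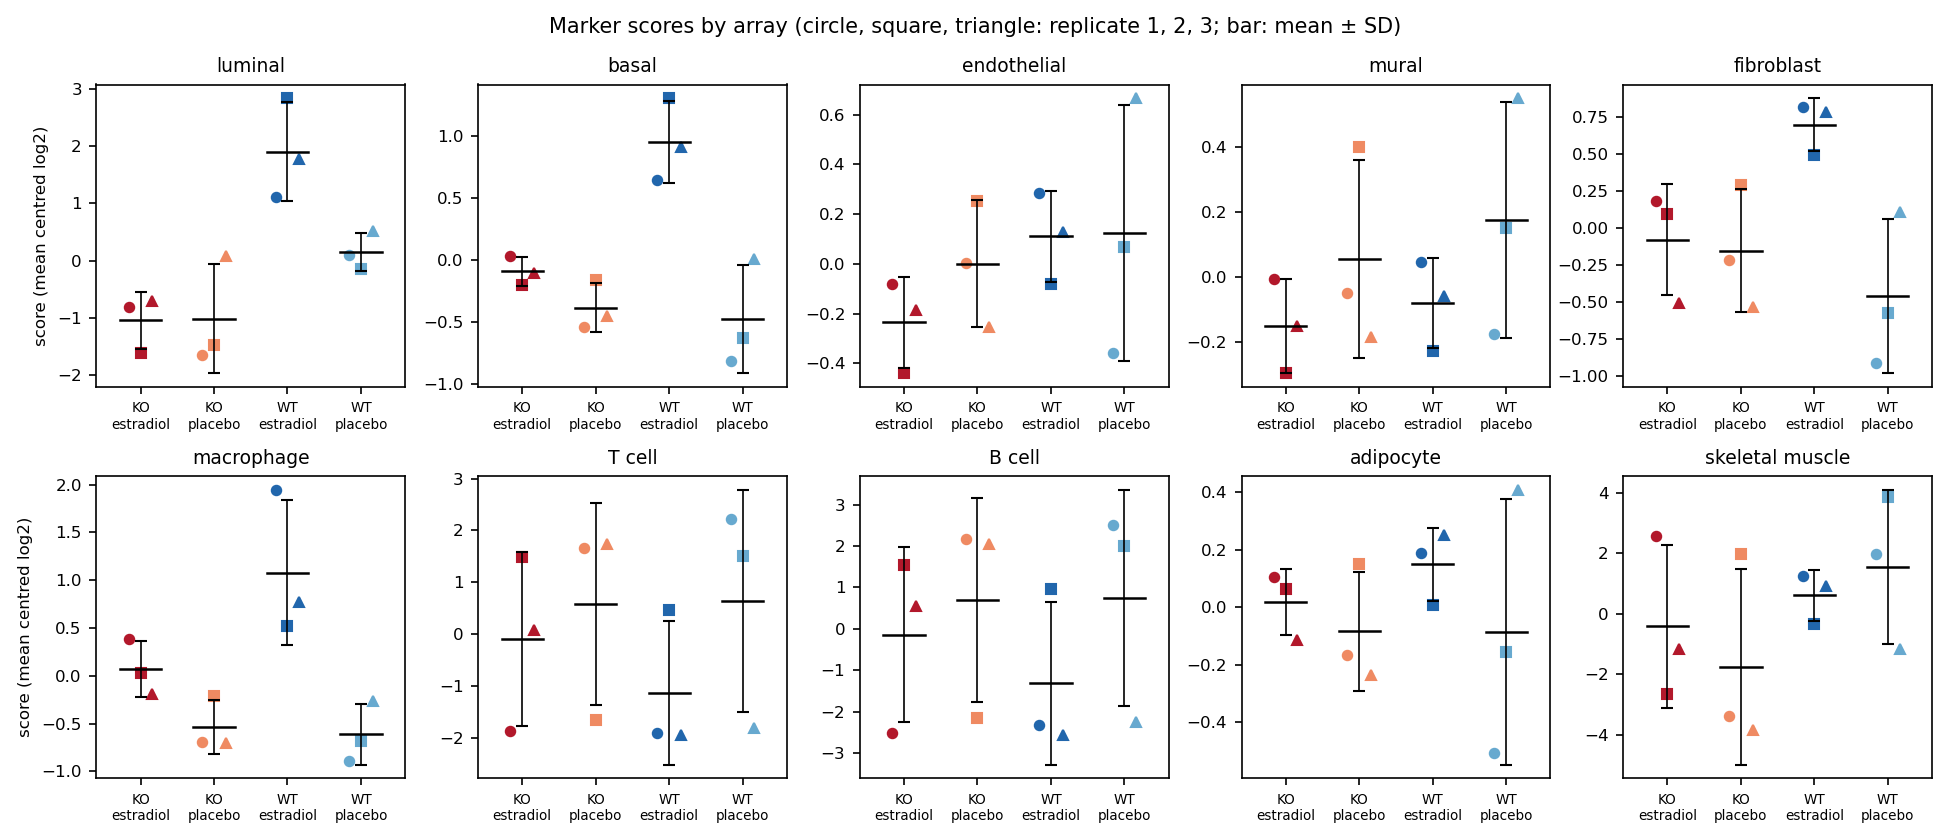
Marker scores (y axis, mean centred log2 value of each list) in the 4 groups (x axis); symbols are the single arrays and bars the mean ± SD of 3. The luminal, basal, fibroblast and macrophage scores of the 3 WT estradiol arrays lie above those of every other array, while the T cell, B cell and skeletal muscle scores spread widely within groups.

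The clearest pattern among the Notch genes was a lower level in KO than in WT glands under estradiol, which no single gene carried past the test. In 6 of the 10 genes, namely Notch1, Notch2, Notch3, Dll1, Hes1 and Hey1, all 3 KO estradiol glands lay below all 3 WT estradiol glands, as they did in 11.8% of all genes. This holds on the probe set used for each gene, and the groups overlapped on the second probe sets of Notch1, Notch2 and Notch3. No member lay above, as did 10.5% of all genes. The count depends on the scaling. It was 5 of 10 after quantile scaling, without Dll1, and 2 of 10 (Notch2 and Hes1) after each array was centred on the median of its genes, which moved the median of all genes by 0.16 in this comparison and left 6.26% of all genes lower without overlap. The median difference of the 10, KO minus WT, was -0.54, against 0.03 over all genes, and -0.38 against 0.19 after median scaling. By limma 0 of the 10 were called, where 1.12% of all genes were, and 7 of the 10 had an unadjusted p under 0.05, where 13.5% of all genes did. After median scaling 1 of the 10 did. Over all genes 6 rose and 198 fell in KO, and 12 rose and 80 fell after median scaling. Leaving out KO estradiol replicate 3 left 0 of the 18193 genes called instead of 204. The 6 luminal and 2 basal markers that fell in the same comparison, of 14 and 10 measured, lay in the same direction. So did the luminal, basal, fibroblast and macrophage scores above. Other lists differed, with 8 of 8 T cell, 4 of 8 mural and 1 of 10 endothelial markers higher in KO. The part of any of these in the Notch values was not tested.

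**Figure D2:**
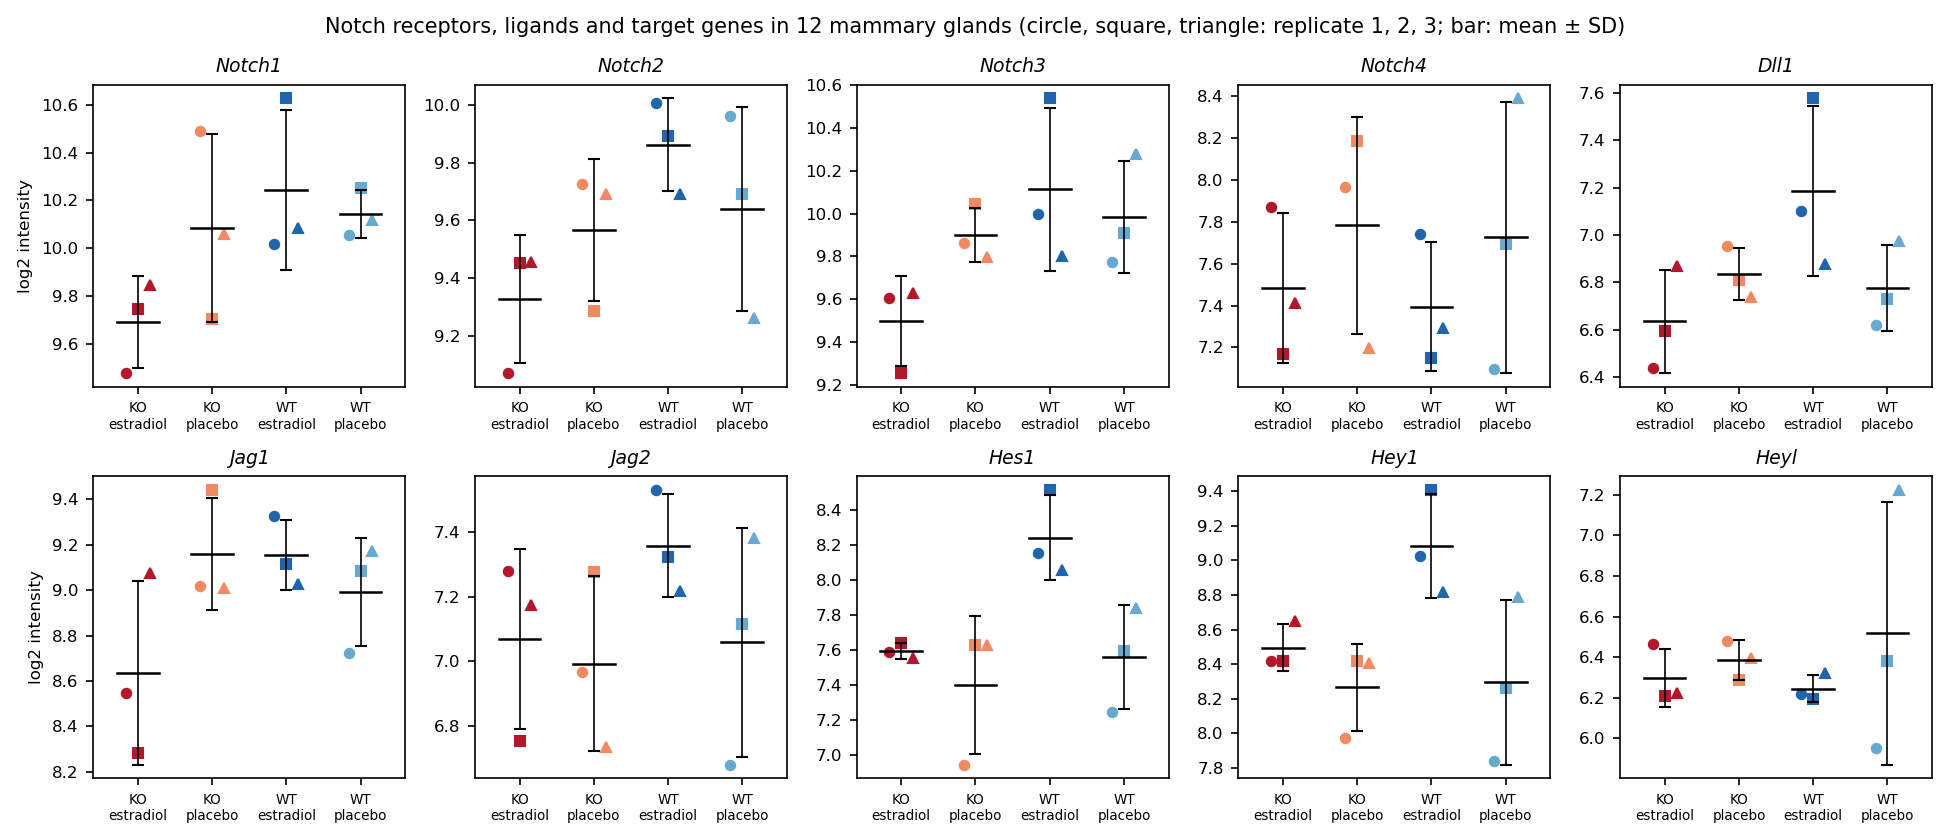
Log2 intensity (y axis) of the 10 Notch genes in the 4 groups (x axis); symbols are the single arrays and bars the mean ± SD of 3. Each panel has its own y range, and the KO estradiol arrays lie below the WT estradiol arrays without overlap in Notch1, Notch2, Notch3, Dll1, Hes1 and Hey1.

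Among the receptors, Notch3, which is known from vascular mural cells and also expressed in mammary luminal progenitors, measured 9.61, 9.26 and 9.63 in KO estradiol glands, against 9.997, 10.54 and 9.80 in WT estradiol glands. WT replicate 2 was the highest of the 6, and the groups did not overlap. The difference was -0.61 (95% interval -1.07 to -0.16, adjusted p = 0.218), and -0.40 without WT estradiol replicate 2. Notch1, a receptor of luminal mammary cells among many other types, measured 9.48, 9.75 and 9.85 in KO estradiol glands, against 10.02, 10.63 and 10.09 in WT estradiol glands. Its difference was -0.55 (95% interval -1.03 to -0.07, adjusted p = 0.296), and -0.36 without the same WT gland. Notch2, a broadly expressed receptor, measured 9.07, 9.45 and 9.46 in KO estradiol glands, against 10.01, 9.89 and 9.69 in WT estradiol glands, a difference of -0.53 (95% interval -0.98 to -0.09, adjusted p = 0.274). The receptor Notch4, best known from endothelium, did not share the pattern. It measured 7.87, 7.17 and 7.41 in KO estradiol glands, against 7.74, 7.15 and 7.29 in WT estradiol glands, and the groups overlapped (difference 0.09, 95% interval -0.70 to 0.88).

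Among the ligands, Dll1, a Delta-type ligand that activates Notch receptors on adjoining cells, measured 6.44, 6.59 and 6.87 in KO estradiol glands, against 7.10, 7.58 and 6.88 in WT estradiol glands. The highest KO and the lowest WT value lay next to each other, so the separation was narrow. The difference was -0.55 (95% interval -0.96 to -0.14, adjusted p = 0.227), and -0.35 without WT estradiol replicate 2. Jag1, the Jagged ligand mutated in Alagille syndrome in humans, measured 8.55, 8.28 and 9.08 in KO estradiol glands, against 9.33, 9.11 and 9.03 in WT estradiol glands. KO replicate 3 lay within the WT range, and the difference was -0.52 (95% interval -0.996 to -0.05, adjusted p = 0.322), and -0.34 without KO estradiol replicate 2. Jag2, the second Jagged ligand, measured 7.28, 6.75 and 7.18 in KO estradiol glands, against 7.53, 7.32 and 7.22 in WT estradiol glands, with overlap and a difference of -0.29 (95% interval -0.76 to 0.18), and -0.13 without KO estradiol replicate 2.

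The target genes split. Hes1, a repressor that also turns off its own gene, measured 7.59, 7.64 and 7.55 in KO estradiol glands, against 8.15, 8.52 and 8.05 in WT estradiol glands. All 3 KO values lay within a narrow band below the WT values, with a difference of -0.65 (95% interval -1.12 to -0.17, adjusted p = 0.215). Hey1, a related repressor known from vessel and heart development, measured 8.42, 8.42 and 8.65 in KO estradiol glands, against 9.02, 9.41 and 8.81 in WT estradiol glands. The difference was -0.59 (95% interval -1.12 to -0.05, adjusted p = 0.323). Heyl, the third family member, described in vascular smooth muscle, measured 6.46, 6.21 and 6.22 in KO estradiol glands, against 6.22, 6.20 and 6.32 in WT estradiol glands. These overlapped, and the difference was 0.05 (95% interval -0.52 to 0.62).

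Without estradiol the genotypes were not told apart. In all 10 genes the KO placebo and WT placebo glands overlapped, where 4.9% of all genes lay higher and 1.81% lower in KO without overlap. The differences, KO minus WT, lay between -0.16 for Hes1 (95% interval -0.64 to 0.32) and 0.17 for Jag1 (95% interval -0.31 to 0.64). No member was called by limma, nor was any of the 18193 genes (0%), of which 370 had an unadjusted p under 0.05, none of them a member. Hes1 measured 6.94, 7.63 and 7.63 in KO placebo glands and 7.25, 7.60 and 7.84 in WT placebo glands. In the average over both treatments no member was called either, again with 0% of all genes. Of the members, 2 had an unadjusted p under 0.05 there, Hes1 at -0.40 ± 0.15 (SE, adjusted p = 0.407) and Notch3 at -0.35 ± 0.14 (SE, adjusted p = 0.452), where 10.1% of all genes did. After either scaling 0 of the 10 did.

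The estradiol effect in WT glands was largest in the target genes Hey1 and Hes1. Hey1 measured 9.02, 9.41 and 8.81 in WT estradiol glands, against 7.84, 8.26 and 8.79 in WT placebo glands. The groups did not overlap, although WT placebo replicate 3 lay just under the lowest estradiol value. The difference was 0.79 ± 0.24 (SE, 95% interval 0.25 to 1.32, adjusted p = 0.150), which missed the threshold. Without WT placebo replicate 3 it was 1.03 (adjusted p = 0.0272) and was called, in a fit that called 1146 of the 18193 genes in WT instead of 342. Hes1 measured 8.15, 8.52 and 8.05 in WT estradiol glands, against 7.25, 7.60 and 7.84 in WT placebo glands, again without overlap, with a difference of 0.68 ± 0.21 (SE, 95% interval 0.21 to 1.16, adjusted p = 0.160). With weights estimated per array, which gave that placebo array a weight of 0.249, Hey1 was called at 0.81 (adjusted p = 0.00817) and Hes1 at 0.65 (adjusted p = 0.0242). In that fit 4702 of the 18193 genes were called in WT, so these calls are not particular to Hey1 and Hes1.

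The other members differed less in WT. In Dll1 the difference was 0.41 (95% interval -0.0037 to 0.82, adjusted p = 0.377), and the groups overlapped, with 7.10, 7.58 and 6.88 in WT estradiol glands against 6.62, 6.73 and 6.98 in WT placebo glands. Without WT estradiol replicate 2 it was 0.21. Jag2 differed by 0.30, Notch2 by 0.22, Jag1 by 0.16, Notch3 by 0.13 and Notch1 by 0.10, the last at -0.025 after median scaling, which moved the median of all genes by -0.13 in WT. Single placebo arrays set much of these values. Without WT placebo replicate 1 Jag2 differed by 0.11, Jag1 by 0.03 and Notch3 by 0.02, and without WT placebo replicate 3 Notch2 differed by 0.04. Without WT estradiol replicate 2 Notch1 differed by -0.09 and Notch3 by -0.09, and without WT estradiol replicate 1 Jag1 differed by 0.08. In the other direction Notch4 differed by -0.33 and Heyl by -0.27. Heyl and Notch4 had their highest value in WT placebo replicate 3, at 7.22 and 8.39, and without it their differences were 0.08 and 0.0018. Altogether 0 of 10 were called in WT, where 1.88% of all genes were, and 2 had an unadjusted p under 0.05, where 13.5% of all genes did. Estradiol glands lay above placebo glands without overlap in 2 of 10, against 11.9% of all genes, and below in 0 of 10, against 5.11%. After quantile scaling 1 of 10 lay above and 0 below, against 9.51% and 7.82% of all genes, and after median scaling 1 and 0, against 6.41% and 15.9%. The luminal and basal scores were also higher in WT estradiol than in every WT placebo gland, as given above. Trp63, a transcription factor of basal cells and 1 of the 10 markers in the basal score, measured 6.97, 8.14 and 7.54 in WT estradiol against 5.05, 5.68 and 6.59 in WT placebo glands.

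In KO glands estradiol went with lower values in most members, again without a call. Jag1 measured 8.55, 8.28 and 9.08 in KO estradiol glands, against 9.02, 9.44 and 9.01 in KO placebo glands, and KO estradiol replicate 3 overlapped with the placebo values. Its difference was -0.52 (95% interval -0.9965 to -0.05, adjusted p = 0.550), the only member with an unadjusted p under 0.05, where 8.32% of all genes had one, and -0.35 without KO estradiol replicate 2. Notch3 measured 9.61, 9.26 and 9.63 in KO estradiol glands, against 9.86, 10.04 and 9.80 in KO placebo glands, without overlap (difference -0.40, 95% interval -0.86 to 0.05, adjusted p = 0.646). On its other probe set these groups overlapped, at 7.98, 7.13 and 7.41 against 7.57, 7.70 and 7.38. The difference there was only -0.04 (unadjusted p = 0.889 by limma), so the lower KO value of Notch3 rests on the probe set used. Notch1 differed by -0.39, Notch4 by -0.30, Notch2 by -0.24, Dll1 by -0.20 and Heyl by -0.09. Without KO placebo replicate 1 Notch1 differed by -0.19, without KO placebo replicate 2 Notch4 by -0.10, and without KO estradiol replicate 1 Notch2 by -0.11 and Dll1 by -0.10. Hey1 was higher without overlap, though the nearest values of the groups round to the same figure, at 8.42, 8.42 and 8.65 in KO estradiol against 7.98, 8.42 and 8.40 in KO placebo glands (difference 0.23, 95% interval -0.31 to 0.77, and 0.08 without KO placebo replicate 1). Hes1 differed by 0.19 and Jag2 by 0.08. Thus 1 of 10 lay higher and 1 lower without overlap, against 8.37% and 5.09% of all genes, and after either scaling none lay higher. By limma 0 of 10 were called, where 0.0989% of all genes were.

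**Figure D3:**
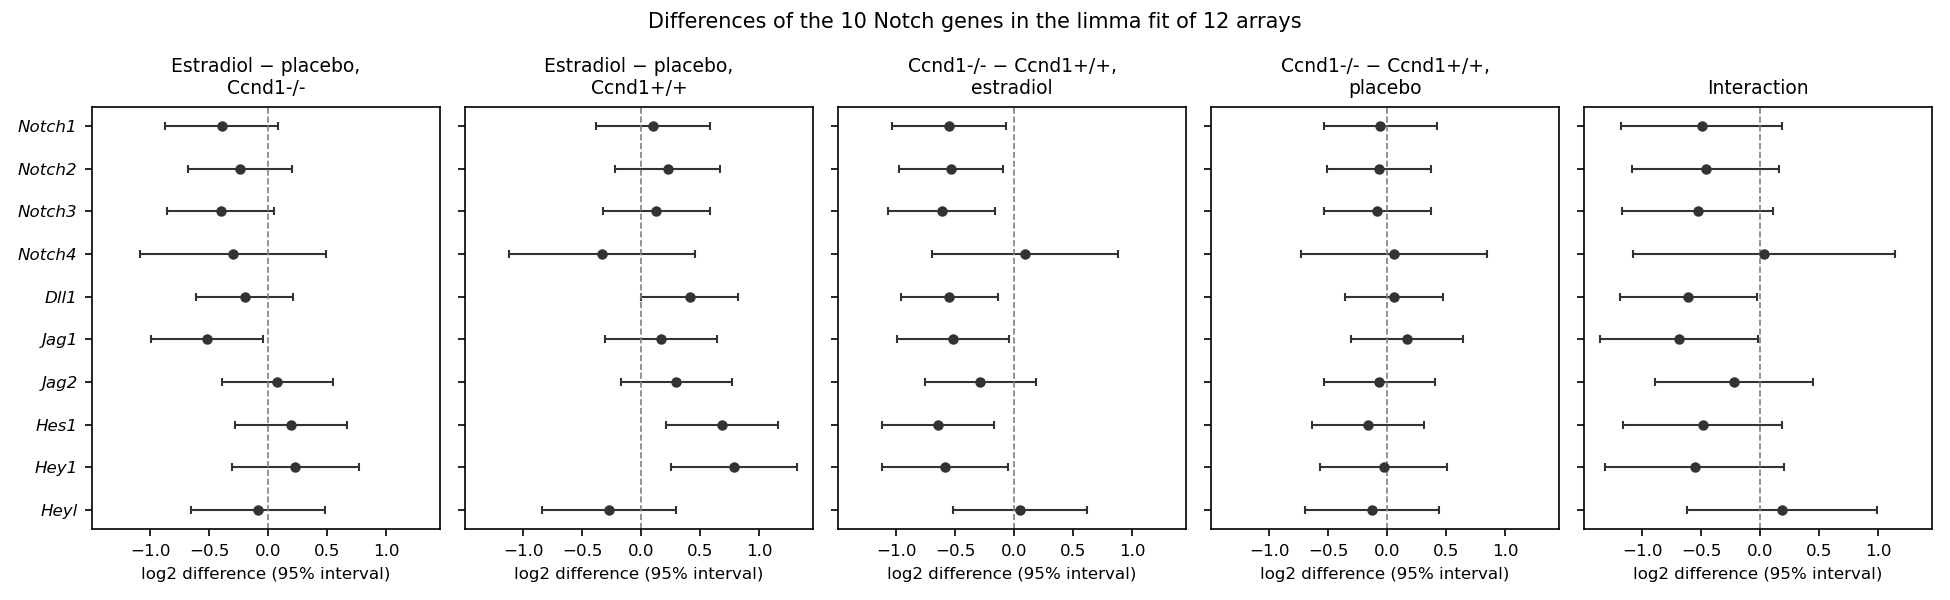
Log2 differences (x axis) of the 10 Notch genes (y axis) in 5 comparisons of the limma fit; points are estimates and bars 95% intervals. In the comparison of genotypes under estradiol 7 intervals lie below 0, in the placebo comparison all 10 include 0, and the interaction is the KO estradiol response minus the WT response.

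The interaction asks directly whether the estradiol response depended on genotype, and 8 of the 10 members had a value below 0, against 9080 of the 18193 genes. The median was -0.49, against 0.00 over all genes, and -0.36 against 0.14 after median scaling. Jag1 had -0.69 ± 0.30 (SE, 95% interval -1.36 to -0.02, adjusted p = 0.767) and Dll1 -0.61 ± 0.26 (SE, 95% interval -1.19 to -0.02, adjusted p = 0.767). These 2 members had an unadjusted p under 0.05, where 6.43% of all genes did, and after either scaling 0 of the 10 did. Hey1 had -0.56, Notch3 -0.53, Notch1 -0.50, Hes1 -0.49 and Notch2 -0.46, with intervals that included 0, while Heyl had 0.18. Without WT estradiol replicate 2 Notch3 had -0.32 and Notch1 -0.30, without KO placebo replicate 1 Notch1 had -0.29, and without WT placebo replicate 3 Notch2 had -0.27. No member was called, where 0.011% of all genes were. All 4 comparisons and the interaction share arrays, so the lower KO values under estradiol and the interaction are not separate observations. Averaged over both genotypes, estradiol gave 0.51 ± 0.17 (SE, adjusted p = 0.183) for Hey1 and 0.44 ± 0.15 (SE, adjusted p = 0.196) for Hes1, and 0 of 10 members were called, where 1.58% of all genes were.

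The 20 probe sets of the members did not all carry the same pattern. Tested as features of their own among all 45101, none was called in any of the 7 comparisons. Over these comparisons 0 to 396 of the 45101 were called, so this is no result about the members. Under estradiol 13 of the 20 were lower in KO than in WT, where 8148 of the 18193 genes were by their brightest probe set. The second probe set of Notch3 differed by -0.65 there, that of Notch1 by -0.19, that of Jag2 by -0.28 and those of Jag1 by -0.54 and 0.16. The second probe set of Notch2 differed by 0.07, but it lay under the median of all 12 arrays, as did 1 probe set of Jag1, 2 of Notch4 and 1 of Heyl. Dll1, Hes1 and Hey1 each rest on a single probe set.

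Among themselves the members fell into unlike profiles over the 12 arrays. Hes1 and Hey1 were the most alike pair over the log2 values, with a Pearson r of 0.94, and had 0.88 over the deviations from the group means. The next over the log2 values were Notch3 and Dll1 at 0.80, and the pairs Dll1 and Hey1 and Notch1 and Dll1, both at 0.74. Heyl and Notch4 were alike at 0.71, whereas Heyl and Hes1 had 0.01 and Notch2 and Notch4 had -0.54. Jag2 and Notch4 had 0.56 over the log2 values and 0.92 over the deviations, the highest of all pairs there. Of the 45 pairs 38 had an r above 0. These arrays share groups and tissue makeup, so the values are descriptions.

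**Figure D4:**
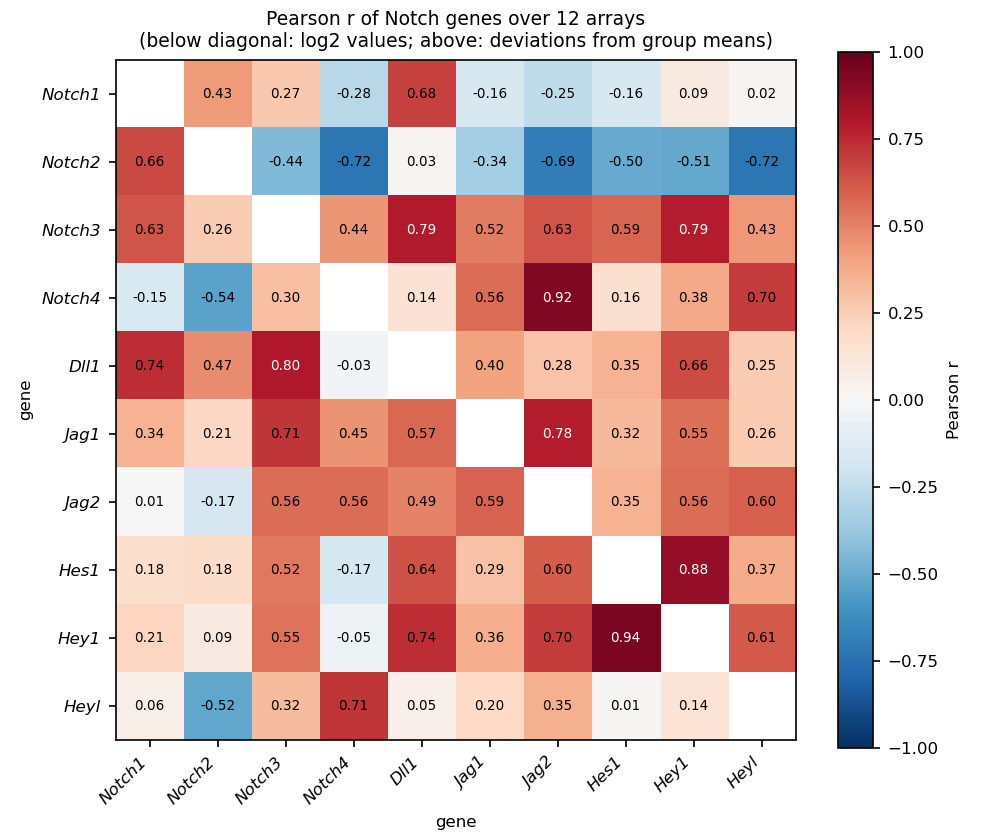
Pearson r between each pair of the 10 Notch genes (both axes) over 12 arrays, from log2 values below the diagonal and from deviations from the group means above it; colour runs from -1 to 1. Hes1 and Hey1 have the highest r over the log2 values, at 0.94, and Notch4 and Jag2 the highest over the deviations, at 0.92, and Notch2 is below 0 with most others once group means are removed.

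The genes with the most similar profiles, members included, were sought among 16336 named genes, by Pearson r over the 12 arrays. For Hes1 they were Trp63 (0.96), Trpm4 (0.95) and Hey1 (0.94), and for Hey1 they were Ier3 (0.94), Hes1 (0.94) and Cd14 (0.93). Of these, Trp63 was 1 of the 10 basal markers and Cd14 was 1 of the 8 macrophage markers. For Notch4 they were Gpr4 (0.98), Cdh13 (0.93) and Kdr (0.93), the last 1 of the 10 endothelial markers. For Notch1 they were Fam43a (0.93), Brd3 (0.91) and Cntrob (0.91), for Notch2 Iqgap2 (0.96), Cxcl12 (0.95) and Sh3gl3 (0.95), and for Notch3 Cbfa2t2 (0.91), Inhbb (0.90) and Ica1 (0.88). The ligand Dll1 was closest to Sema4c (0.92), Col4a6 (0.91) and Ern1 (0.91), Jag1 to Card10 (0.91), Cul4a (0.89) and Mxd4 (0.89), and Jag2 to Ece1 (0.96), Cdc42bpb (0.94) and Galnt15 (0.94). Heyl was closest to Dach1 (0.93), Csta1 (0.86) and Wt1os (0.85).

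Of 49 other genes of the pathway 44 were measured. By limma none was called in any of the 7 comparisons, where 0% to 1.88% of all genes were. Between 0 and 11 of the 44 had an unadjusted p under 0.05. The 11 were in the genotype comparison under estradiol, where 13.5% of all genes had such a p, and over the 7 comparisons that share lay between 2.03% and 16.4%. Under estradiol 13 of the 44 (29.5%) were lower in KO than in WT without overlap and 2 (4.55%) higher, against 11.8% and 10.5% of all genes. Their median difference was -0.17, against 0.03 over all genes. Whether these counts depend on the scaling was not tested, and median scaling moved the median of all genes by 0.16 in this comparison. The smallest p among the 44 in this comparison was that of Rbpj, the DNA-binding partner of cleaved Notch, singled out here after its values were seen. Rbpj measured 9.38, 9.52 and 9.47 in KO estradiol, 9.69, 9.87 and 9.85 in KO placebo, 10.41, 9.79 and 10.10 in WT estradiol and 9.55, 9.64 and 9.70 in WT placebo glands. Estradiol glands thus lay below placebo glands in KO and above them in WT, both without overlap. KO minus WT under estradiol was -0.64 ± 0.14 (SE, adjusted p = 0.0675 by limma), which missed the threshold. It was -0.80 (adjusted p = 0.0407) without WT estradiol replicate 2 and -0.49 without WT estradiol replicate 1. Over the fits that each left out 1 array its adjusted p lay between 0.0407 and 0.1996. The estradiol difference was -0.34 ± 0.14 in KO (SE, adjusted p = 0.567) and 0.47 ± 0.14 in WT (SE, adjusted p = 0.151), and the other 2 probe sets of Rbpj differed by -0.54 and -0.46 between genotypes under estradiol. For estradiol against placebo those 2 gave -0.18 and -0.04 in KO, and 0.57 and 0.55 in WT.

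Within the lists, the average estradiol effect gave the following values, none of which passed the test. Of the other ligands, Dlk2 had 0.04 and Dll4, an endothelial Delta ligand, -0.09. Among proteins that cut the receptor, Aph1a, a gamma-secretase subunit, had 0.25 and the protease Adam10 -0.27. The fringe glycosyltransferase gene Mfng had -0.40 and Pofut1, which adds fucose to Notch, 0.11. Numbl, a relative of the Notch inhibitor Numb, had 0.48 ± 0.12 (SE, adjusted p = 0.0944) and the ubiquitin ligase gene Mib2 had 0.17. The acetyltransferase genes Kat2b and Ep300 had -0.26 and -0.26, and the target genes Dtx1 and Nrarp -1.07 ± 0.59 (SE, adjusted p = 0.407) and -0.29. Dtx1 spread widely within the groups, with SDs of 0.99 to 1.38. In the same average 0 of 7 B cell and 0 of 8 T cell markers were above 0, and their part in the Dtx1 value was not tested.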

How the data were processed

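Mammary gland RNA of 12 mice was measured on 12 arrays. The deposited values are log2 intensities per probe set. The submitters' processing notes name RMA (version not given in the sources used here) and limma 2.9.16. The range of the values fits a log2 scale, with 0 values below 0. GEO's platform annotation gives a single gene for 34945 probe sets. For each of 18193 genes the brightest probe set on average was kept, with no filter on dim genes. No genome build is named by the files, so positions are given for RefSeq promoter windows alone.

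The fit was limma 3.58.1 in R 4.3.3 with 4 group means and eBayes (8 residual and 2.15 prior degrees of freedom), two-sided, with Benjamini-Hochberg adjustment over all genes. Differences are estradiol minus placebo or KO minus WT. The test was tried on simulated data. All 10 listed genes are named. Of each list of other pathway genes the called ones would be named, or, as here with none called, the 2 with the smallest p in the average estradiol effect. The 3 genes most like each member are named by Pearson r. Members, lists and tests were chosen with earlier results of these data known. The alternatives were other probe set rules, the dimmest 40% of genes left out, other scalings, other priors, array weights, a replicate block, fits of the arrays compared, a threshold of 0.1 and leaving out each array. Figures were drawn with matplotlib 3.10.9.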

Additional observations from a re-analysis of the deposited data

Results flagged for a closer look

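In Rbpj all 3 estradiol glands lay below all 3 placebo glands in KO and above them in WT, on the probe set used, and neither difference passed the test (adjusted p = 0.567 in KO and 0.151 in WT by limma). The interaction, KO response minus WT response, was -0.81 ± 0.20 (SE, 95% interval -1.26 to -0.36), with an unadjusted p of 0.0025 and an adjusted p of 0.342, so it failed the correction over 18193 genes. Its other probe sets gave -0.75 and -0.60 for the interaction, but in KO they differed between estradiol and placebo by only -0.18 (unadjusted p = 0.239 by limma) and -0.04 (unadjusted p = 0.769), so the lower KO value rests on the probe set used. Over the leave-one-out fits the interaction lay between -0.97 and -0.66. The luminal score was 1.11 to 2.84 in WT estradiol glands and at most 0.51 in every other gland. The basal, fibroblast and macrophage scores were also higher in the WT estradiol glands than in every other gland. Among the WT estradiol glands Rbpj, the fibroblast score and the macrophage score were highest in replicate 1 and lowest in replicate 2. The luminal and basal scores were highest in replicate 2 and lowest in replicate 1. The part of these scores in the Rbpj values was not tested.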

How the results depend on the processing

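No Notch gene was called in 5 of the 7 comparisons under any alternative. With array weights, whose estimation stopped before its tolerance was reached, 2 members (Hes1 and Hey1) were called in the WT estradiol comparison and 2 in the average estradiol effect, and of the 44 other pathway genes 10 and 10, with 1 in the genotype comparison under estradiol. In that fit 4702, 4835 and 428 of all 18193 genes were called in these comparisons, so the counts are no result about the Notch genes. At an adjusted p under 0.1, 1 other pathway gene was called in each of these 3 comparisons. At that threshold 715, 585 and 473 of all 18193 genes were called in them, so these counts are no result about the pathway. Leaving out 1 array gave 0 to 1 member calls in the WT and average estradiol effects, the 1 being Hey1 without WT placebo replicate 3, and 0 to 1, 0 to 2 and 0 to 1 pathway calls in the WT, average estradiol and genotype under estradiol comparisons. Without that WT placebo array 1146 of all 18193 genes were called in WT and 1400 in the average estradiol effect, instead of 342 and 287. Of 634 values under other settings 8 turned sign, none of them called: Dlk2 at -0.017 with quantile and -0.016 with median scaling, Notch1 in WT at -0.025 with median scaling and -0.019 with array weights, Heyl at -0.0085 between genotypes under estradiol with the mean of its probe sets, and, with array weights, Heyl at -0.032 in the interaction, Dll4 at 0.042 and Mfng at 0.040. Leaving out single arrays turned 13 of 720 values. The ranges were, for estradiol in WT, -0.0915 to 0.2145 for Notch1, -0.0859 to 0.2819 for Notch3, -0.6458 to 0.0018 for Notch4 and -0.5557 to 0.0801 for Heyl. For estradiol in KO they were -0.0352 to 0.3082 for Hes1 and -0.0521 to 0.2346 for Jag2. Between genotypes they were -0.3171 to 0.0678 for Hes1 under placebo, and -0.1051 to 0.2629 for Notch4 and -0.0306 to 0.0977 for Heyl under estradiol. They were -0.1692 to 0.4666 for Heyl in the interaction and -0.1744 to 0.0275 for Dll4 in the average estradiol effect. The cause was not tested.

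Same-numbered arrays did not deviate together (7 of 18 pairs correlated over 0.1, from -0.741 to 0.66), so the replicate block is a check and not a paired design. With the replicate block 0 members were called in any comparison (Hey1 in WT at 0.79, adjusted p = 0.186), and the calls over all genes were 158 in WT, 10 in KO and 45 between genotypes under estradiol, instead of 342, 18 and 204. Over the other settings the WT count lay between 71 (arrays compared alone) and 4702 (array weights), and the genotype count under estradiol between 45 (replicate block) and 473 (adjusted p under 0.1). Without single arrays they lay between 100 (WT placebo replicate 2) and 1146 (WT placebo replicate 3) and between 0 (KO estradiol replicate 3) and 315 (WT placebo replicate 3).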
